A study of Mus musculus with 4 samples.

Results

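Calcium enters the mitochondrial matrix through the mitochondrial calcium uniporter, and 7 genes of this uptake and release system were read in RNA from mouse explants. The 7 were Mcu, Smdt1, Micu2, Micu3, Mcur1, Letm1 and Slc8b1. They were taken by symbol from the 49997 gene rows of each deposited table, all 7 were found, and all 7 were among the 19837 genes with enough counts to be tested. The tissue was the aorta-gonad-mesonephros region (AGM), where the earliest blood stem cells arise, taken from C57BL/6J embryos at E10.5 and E11.5 per the growth protocol, while the series design names E10.5 alone. All pieces were cultured on membrane filters for 48 hours in MyeloCult medium with hydrocortisone, 2 without treatment and 2 with 5 µM CCCP. CCCP is a protonophore: it carries protons across the inner mitochondrial membrane and collapses the membrane potential. The labels name no vehicle for the untreated explants and do not say how many embryos went into a library, so the spread between the 2 libraries of a group may be technical.

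The uniporter is a channel of the inner mitochondrial membrane, and the membrane potential is the force that draws calcium through it. Mcu encodes the pore, and Smdt1 encodes EMRE, a small membrane protein that the pore needs to conduct in animal cells. Micu2 and Micu3 encode EF-hand proteins of the intermembrane space that close the pore at low calcium and open it when calcium rises. Mcub encodes a pore paralog that lowers conduction, and Mcur1 encodes a regulator described as a scaffold of the channel. Calcium leaves the matrix through the sodium-calcium exchanger NCLX, the product of Slc8b1, and Letm1 encodes an inner membrane protein that exchanges cations for protons.

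Replicate 1 held 48216849 counted reads untreated and 48827826 with CCCP, and replicate 2 held 37360968 and 37579087. The groups were thus alike in depth, and depth differed by replicate number. The labels name embryonic stem cells of the blood as the cell type and the series design names c-kit+ cells, while the extraction text describes RNA of whole explants with no sort. The 9 haematopoietic markers (Kit, Runx1, Ptprc and others) summed to 143 to 180 CPM (counts scaled to the size of each library, with TMM factors). Of these 9, 8 had enough counts to be tested. The 5 mesenchymal markers (Col1a1, Pdgfra and others) summed to 1168 to 1690 CPM. The values are thus those of mixed explant tissue, and in such bulk RNA fewer cells of a type and less RNA per cell cannot be told apart. Hepatic markers differed most between the groups: all 9 were lower in both CCCP libraries, and they summed to 857 and 1486 CPM in the untreated libraries against 5.87 and 69.3 CPM with CCCP. None of the 9 was at 0 in all libraries, though Ahsg had no more than 3 counts in at least 1 of them. The part of this difference in the results below was not tested.

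The call rule was an adjusted p-value under 0.05 in edgeR's quasi-likelihood test, adjusted over all genes by Benjamini and Hochberg, and 0 of the 7 uniporter genes met it. No gene of the whole table did so (0%), against 2899 genes at an unadjusted p under 0.05. Both CCCP libraries nevertheless lay above both untreated libraries for 5 of the 7, namely Mcu, Smdt1, Micu2, Letm1 and Slc8b1, on the CPM scale. That order was met by 24.0% of all genes tested. Micu3 lay below in both CCCP libraries, an order met by 24.8% of all genes, and the groups overlapped for Mcur1. In either direction, 6 of the 7 thus had groups that did not overlap, against 48.8% of all genes. A log2 fold change above 0 was found for 6 of the 7, against 49.2% of all genes. The median log2 fold change of the 7 was 0.26, and that of all genes was -0.01.

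**Figure D1:**
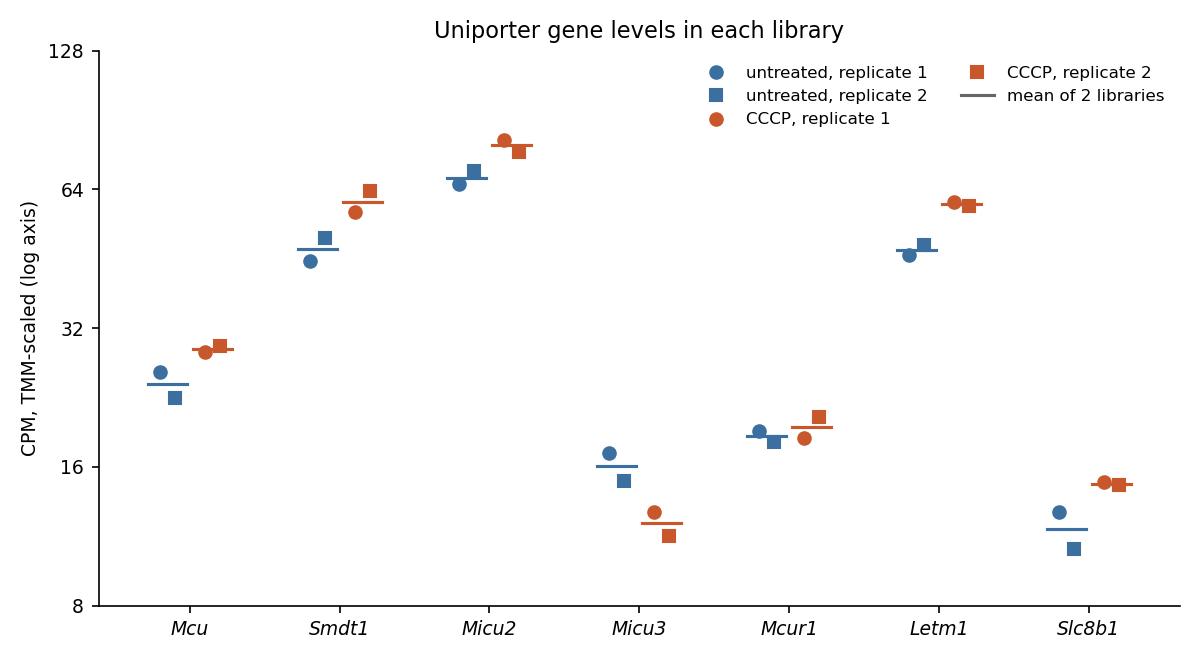
TMM-scaled CPM (log axis) of the 7 uniporter genes in each library; circles are replicate 1, squares replicate 2, and bars the mean of the 2 libraries of a group. Both CCCP libraries sit above both untreated libraries for Mcu, Smdt1, Micu2, Letm1 and Slc8b1, below them for Micu3, and the groups overlap for Mcur1.

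The pore gene Mcu (chromosome 10, 59446984 to 59617409 on mm10, minus strand) had 25.7 and 22.6 CPM in untreated replicates 1 and 2. It had 28.4 and 29.3 CPM in the CCCP libraries. The CCCP values were thus higher, and the gap between the groups was close to the gap between the untreated libraries. The group means were 24.2 ± 2.25 and 28.9 ± 0.679 CPM (SD, n = 2). The log2 fold change, CCCP over untreated, was 0.26 (standard error 0.144). Its 95% interval ran from -0.096 to 0.61, and the edgeR adjusted p-value was 0.452.

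Smdt1 (chromosome 15, 82346046 to 82349062, plus strand), the EMRE gene, had 44.8 and 50.2 CPM untreated and 57.1 and 63.4 CPM with CCCP. Replicate 2 was the higher library in each group, and the groups did not overlap. The log2 fold change was 0.34 (standard error 0.127, 95% interval 0.033 to 0.65), with an unadjusted edgeR p of 0.0352 and an adjusted p of 0.315. Letm1 (chromosome 5, 33739673 to 33782717, minus strand), the cation-proton exchanger gene, had 46.1 and 48.4 CPM untreated and 60.1 and 59.1 CPM with CCCP. Its libraries were close together within each group, and its log2 fold change was 0.33 (standard error 0.112, 95% interval 0.062 to 0.61). Letm1 had the smallest p of the 7, 0.0238 unadjusted and 0.284 adjusted in edgeR. At an unadjusted p under 0.05, 2 of the 7 genes were thus higher, a mark reached in that direction by 5.45% of all genes, and 0 were lower, against 9.16% of all genes.

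The RefSeq promoter windows (GRCm38.p6) of these genes with the smallest p-values are shown because both had CCCP values above untreated values and no annotated exon in the 250 bases before the start site. RefSeq windows were at hand for 5 of the 7 genes, not for Micu3 and Slc8b1. Capitals mark matches, on either strand, to 6 motifs: CGCNTGCGC (NRF1, also searched in a longer form with a further G at its 5′ end), TGACGTCA (the cyclic AMP response element), CCAAT, TGATGNAA (bound by the stress factor ATF4 and its partners), TCAAGGTCA (the estrogen-related receptors) and GGGCGG (the SP family). The longer NRF1 form contains the shorter, and no other matches overlapped in the windows shown.
Smdt1, chr15:82345796-82346045, plus strand: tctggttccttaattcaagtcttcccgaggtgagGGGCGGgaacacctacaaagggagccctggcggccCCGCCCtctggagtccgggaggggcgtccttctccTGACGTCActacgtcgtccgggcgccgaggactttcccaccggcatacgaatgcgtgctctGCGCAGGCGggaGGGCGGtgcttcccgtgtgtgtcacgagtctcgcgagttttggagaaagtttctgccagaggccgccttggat
Letm1, chr5:33782718-33782967, minus strand: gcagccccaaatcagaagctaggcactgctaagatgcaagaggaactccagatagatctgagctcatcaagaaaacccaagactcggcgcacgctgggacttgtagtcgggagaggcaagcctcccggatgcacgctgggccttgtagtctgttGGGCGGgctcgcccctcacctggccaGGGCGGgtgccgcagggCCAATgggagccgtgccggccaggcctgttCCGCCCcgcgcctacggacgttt
The Smdt1 window held TGACGTCA at base 105, counted from its 5′ end, which 1.55% of 32851 promoter windows of this length hold, and GGGCGG at bases 35, 70 and 178. It also held the shorter NRF1 letters at base 166, on the opposite strand, which 5.16% of all windows hold, but not the longer form. The Letm1 window held GGGCGG at bases 155, 181 and 228 and CCAAT at base 198. GGGCGG was found in 32.7% and CCAAT in 33.8% of all windows, and among the 5 genes with a window these motifs were found in 4 and 2. The shorter NRF1 form was in 1 of the 5, and the outcome thus depended on the form searched. The longer NRF1 form and the ATF4 and estrogen-related receptor letters were in none of the 5, against 3.74%, 3.45% and 0.387% of all windows.

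The EF-hand regulators did not share a direction. Micu2 (chromosome 14, 57916280 to 57999296, minus strand) had 65.8 and 70.0 CPM untreated and 82.1 and 77.4 CPM with CCCP. The groups did not overlap, and the log2 fold change was 0.23 (standard error 0.113, edgeR adjusted p 0.396). Micu3 (chromosome 8, 40307438 to 40388782, plus strand), the paralog best known from nervous tissue and muscle, had 17.1 and 14.9 CPM untreated and 12.8 and 11.3 CPM with CCCP. It was the only member lower in both CCCP libraries, with replicate 1 the higher library in each group. The log2 fold change was -0.41 (standard error 0.184, 95% interval -0.86 to 0.036, edgeR adjusted p 0.364).

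Markers of nervous tissue had no common direction. Of 8 neural markers (Tubb3, Elavl3, Stmn2 and others), 4 had a positive and 4 a negative log2 fold change, and they summed to 928 and 826 CPM untreated and 1015 and 861 CPM with CCCP. The 7 skeletal muscle markers (Acta1, Myog, Mylpf and others) summed to 351 and 242 CPM untreated and 353 and 340 CPM with CCCP, and 6 of the 7 had a positive log2 fold change, 2 of them without overlap. No marker of either list was at 0 in all libraries. A microRNA gene, Mir7666, lies in Micu3 exons on the opposite strand and shares 55 bases (0.865%) with them. None of the other 6 genes shares exon bases with another gene. The part of nerve or muscle cell content, or of reads from Mir7666, in the Micu3 value was not tested. Of the 50-base stretches of Slc8b1 transcripts, 1.58% occur in transcripts of other genes, against 0 for the other 6.

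Mcur1 (chromosome 13, 43538406 to 43560344, minus strand), the scaffold gene, had 19.2 and 18.2 CPM untreated and 18.5 and 20.6 CPM with CCCP. Its groups overlapped, and its log2 fold change of 0.065 had a 95% interval from -0.32 to 0.45 and an edgeR adjusted p of 0.874. Slc8b1 (chromosome 5, 120511168 to 120534024, plus strand), the NCLX gene, had 12.8 and 10.6 CPM untreated and 14.8 and 14.6 CPM with CCCP. Its CCCP libraries were nearly equal and both higher, while the untreated libraries were further apart. The log2 fold change was 0.33 (standard error 0.188, 95% interval -0.13 to 0.79, edgeR adjusted p 0.455).

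Levels of different genes were compared as TPM, which divides counts by the exon length of each gene. Smdt1 was the most abundant, at 247 ± 14.5 TPM over the 4 libraries (SD, n = 4), above 97.3% of the genes tested. Micu2 followed at 84.9 ± 5.42 TPM, Letm1 at 26.1 ± 1.94 TPM and Mcu at 18.6 ± 2.01 TPM. Slc8b1 stood at 12.3 ± 1.69 TPM, Mcur1 at 10.04 ± 0.981 TPM and Micu3 at 6.07 ± 1.72 TPM. The ranges over the 4 libraries did not overlap between any neighbours in this order, except between Slc8b1 and Mcur1. These ranges do not cover the choice of length. Micu3 has 6359 counted exon bases but 2488 in its longest GENCODE transcript, and Mcu has 3845 and 2872. With transcript lengths the order, above all the place of Micu3, could differ. By counted exon length, the pore gene was thus the fourth of the 7 by transcript level, well below the gene of its small partner EMRE.

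Ratios of TPM within a library do not depend on how libraries are scaled, but their size depends on the exon lengths used. Per Mcu transcript, Micu3 stood at 0.40 in both untreated libraries and at 0.273 and 0.234 in the CCCP libraries. The untreated values were almost equal, and both CCCP values were lower, with a mean that was 0.630 of the untreated mean. Micu2 per Mcu showed no such gap, at 4.19 and 5.09 untreated and 4.75 and 4.33 with CCCP. Smdt1 per Mcu, at 11.4 and 14.6 untreated and 13.2 and 14.2 with CCCP, and Letm1 per Mcu, at 1.25 and 1.50 untreated and 1.48 and 1.41 with CCCP, overlapped as well. By smaller amounts, Mcur1 per Mcu was also lower without overlap, at 0.556 and 0.601 untreated and 0.487 and 0.524 with CCCP. Slc8b1 per Mcu was higher, at 0.658 and 0.623 untreated and 0.692 and 0.659 with CCCP, and its nearest values from the groups almost met. As a result, Micu2 per Micu3 was 10.4 and 12.7 untreated and 17.4 and 18.5 with CCCP. No test of a ratio is given, since the smallest two-sided p that exact permutation of 2 against 2 libraries allows is 0.333. The share of all genes whose ratio to Mcu does not overlap was not determined, so these gaps have no background. On the CPM scale, 48.8% of all genes had groups that did not overlap.

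**Figure D2:**
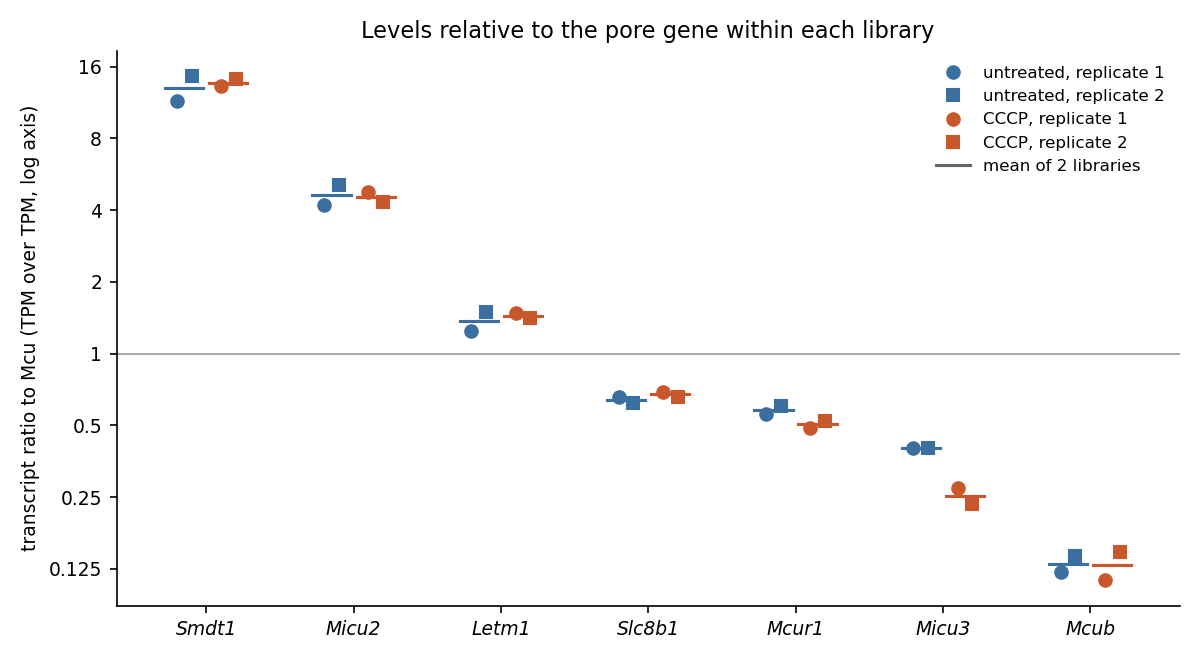
Ratio of each gene's TPM to the TPM of Mcu in the same library (log axis); circles are replicate 1, squares replicate 2, and bars the mean of the 2 libraries of a group. Micu3 falls near 0.4 in both untreated libraries and at 0.273 and 0.234 with CCCP, Mcur1 lies lower and Slc8b1 slightly higher without overlap, and Smdt1, Micu2, Letm1 and Mcub overlap.

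The scale mattered for how many genes stood apart. On the TPM scale the median log2 ratio of all genes was -0.21, and 9.06% of genes were higher and 38.2% lower without overlap. There, 2 of the 7 members were higher in both CCCP libraries (Smdt1 and Letm1), 1 was lower (Micu3), and Mcu, Micu2, Slc8b1 and Mcur1 overlapped. Relative to the median gene on that scale, the log2 ratios were 0.26 for Mcu, 0.35 for Smdt1, 0.24 for Micu2, 0.34 for Letm1, 0.33 for Slc8b1, 0.068 for Mcur1 and -0.41 for Micu3. These lie close to the fold changes on the CPM scale by construction. Both scales use the same counts, and gene length cancels in a ratio between groups.

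Fold changes across all genes went with exon length and with GC content (Spearman's rho -0.35 over 19837 genes and 0.411 over 16205 genes, which are not independent replicates). With the genes in 10 equal groups by exon length, the median log2 fold change was 0.22 in the group of shortest genes and -0.35 in that of the longest. Smdt1, with 585 exon bases, lies in the group of shortest genes, and its log2 fold change was 0.11 once the length trend of each library was removed. Removing the length trend left Mcu at 0.26 and Slc8b1 at 0.26, gave 0.13 for Micu2 and 0.14 for Mcur1, and gave 0.43 for Letm1, which has 5502 exon bases. Micu3, with 6359 exon bases, stood at -0.28.

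For Micu3 the value changed with removal of the GC trend, by an amount that depended on how GC was measured. Its counted exons had a GC content of 43.6% over the 60.8% of bases with known sequence, which places it in the second lowest of 10 equal groups by GC, where the median log2 fold change was -0.21. With the GC trend of each library removed, Micu3 stood at -0.21 (edgeR adjusted p 0.704). With GC taken from its longest transcript alone (2488 bases, 35.7% GC), the sign turned, to 0.075. The same correction by exon GC gave 0.23 for Mcu, 0.17 for Smdt1, 0.29 for Micu2, 0.085 for Mcur1, 0.22 for Letm1 and 0.16 for Slc8b1. All 6 kept a positive value under both corrections. For Smdt1, GC of the longest transcript gave 0.23. Of the 7 genes, 6 were higher without overlap after removal of the length trend (24.5% of all genes) and 1 was lower (21.0%). After removal of the GC trend 5 were higher (22.6% of genes with a GC value) and 0 were lower (21.2%), and the groups of Micu3 overlapped. Whether GC content is a cause of the Micu3 value was not tested.

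**Figure D3:**
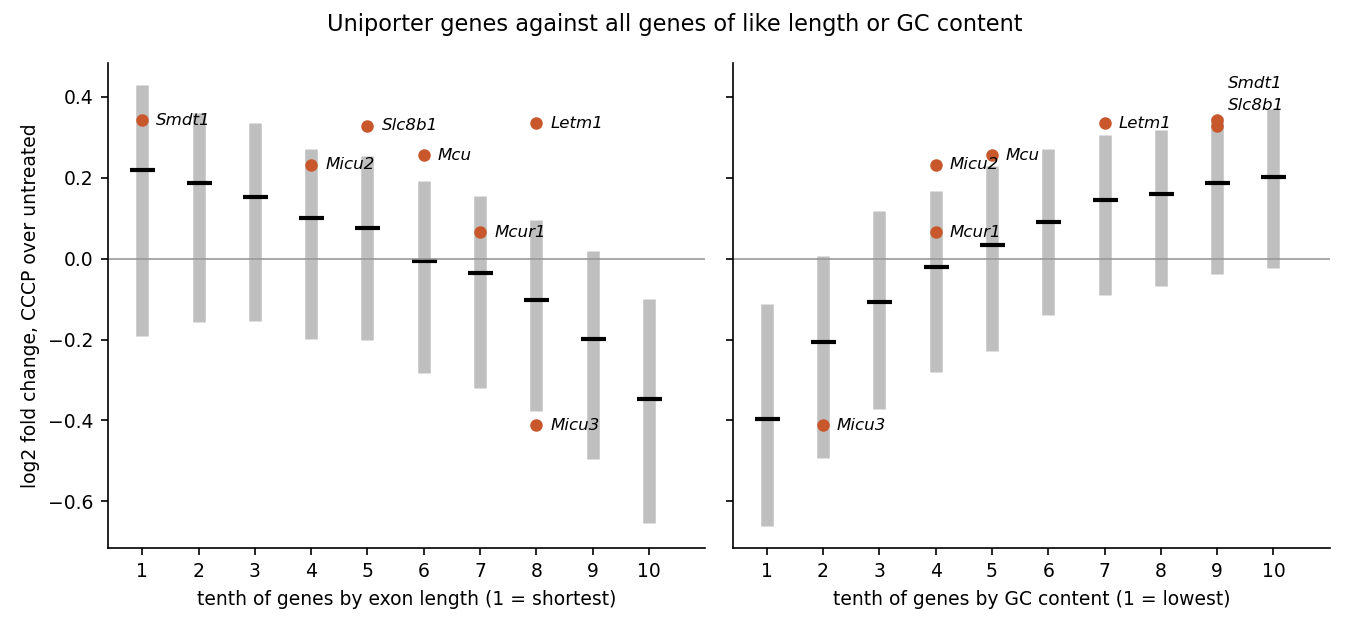
Log2 fold change of all tested genes in 10 equal groups by exon length (left) and by GC content (right); black marks are medians, grey bars the middle 50% of genes, and orange points the 7 uniporter genes. By length, Smdt1, Micu2 and Mcur1 lie within the grey bar of their group, Mcu, Letm1 and Slc8b1 above it and Micu3 below it. By GC, Smdt1, Slc8b1, Mcur1 and Micu3 lie within the bar of their group, and Mcu, Micu2 and Letm1 above it.

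**Figure D4:**
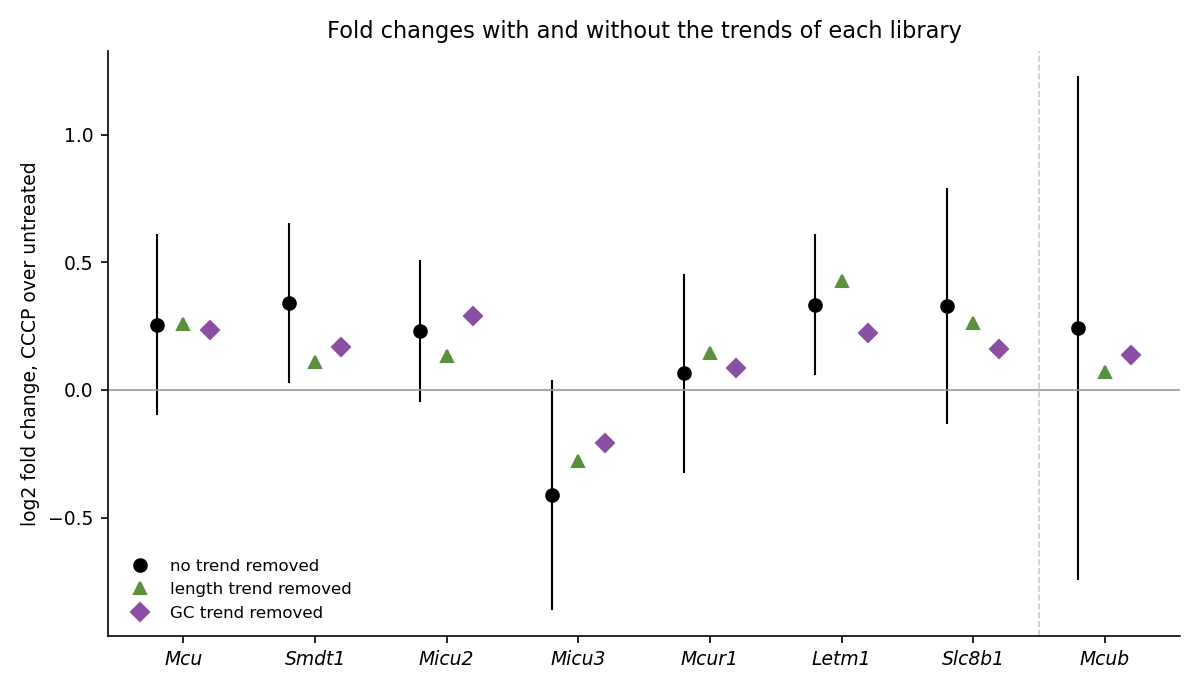
Log2 fold change (CCCP over untreated) of the 7 uniporter genes and, right of the dashed line, of Mcub; circles with their 95% intervals are the fit without correction, triangles the fit with the length trend removed and diamonds with the GC trend removed. Smdt1 drops to 0.11 with the length trend removed, and Micu3 moves from -0.41 to -0.21 with the GC trend removed.

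Another 41 genes of mitochondrial calcium handling were read in the same fit, and 0 passed in edgeR over all genes. At an unadjusted p under 0.05, 0 were higher and 3 were lower, against 5.45% and 9.16% of all genes. Their median log2 fold change was 0.087. Without overlap, 14 genes were higher and 7 lower, against 24.0% and 24.8% of all genes.

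DESeq2 called 2.99% of all genes (0.297% higher and 2.70% lower), the edgeR fit without a filter called 3.43%, and each called 0 of the 7 uniporter genes. DESeq2 also called 0 of the 41 other genes, and the fit without a filter called 1 of them, Itpr1 (log2 fold change -0.52, adjusted p 0.0333).

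Mcub, the gene of the pore paralog, was near the bottom of the range, with 54 and 41 counts untreated and 53 and 54 with CCCP. That is 1.08 and 1.10 CPM against 1.09 and 1.49 CPM, so the groups overlapped. Its log2 fold change of 0.24 had a 95% interval from -0.74 to 1.2, which spans 0 and every value of the 7. It was 0.016 without CCCP replicate 2, 0.46 without CCCP replicate 1 and 0.069 with the length trend removed. Per Mcu transcript it stood at 0.122 and 0.141 untreated and 0.112 and 0.147 with CCCP.

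Proteases and an import factor govern how much EMRE is kept. Maip1, which protects EMRE on import, stood at 0.13, and the m-AAA protease genes Afg3l2 and Spg7 at -0.21 and 0.14. Yme1l1, the i-AAA protease gene, had 163 and 179 CPM untreated and 122 and 140 CPM with CCCP. Its log2 fold change was -0.38 (unadjusted edgeR p 0.0231, adjusted p 0.282), and it was 0.10 with the GC trend removed. Without untreated replicate 1, Maip1 stood at 0.028, and Spg7 stood at -0.027 with the GC trend removed.

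The 3 outer membrane channel genes were all on the positive side. Vdac1, through which calcium and metabolites cross the outer membrane, had 258 and 307 CPM untreated and 338 and 356 CPM with CCCP, a log2 fold change of 0.30 (edgeR adjusted p 0.380). Vdac3 had 74.3 and 105 CPM untreated and 115 and 119 CPM with CCCP, a log2 fold change of 0.38 (adjusted p 0.377). Untreated replicate 1 was the lowest library for each, and without it the values were 0.19 for Vdac1 and 0.17 for Vdac3. Vdac2 stood at 0.24, or 0.052 without untreated replicate 1, and its groups overlapped.

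On the endoplasmic reticulum side, the lower genes had the smaller p-values. Itpr1, an inositol trisphosphate receptor that releases stored calcium, had 73.3 and 65.1 CPM untreated and 44.9 and 51.0 CPM with CCCP. The groups did not overlap, and the log2 fold change was -0.53 (unadjusted edgeR p 0.00641, adjusted p 0.216), or -0.26 with the length trend removed. A predicted gene on the opposite strand shares 327 exon bases with Itpr1, and reads assigned to both genes were not set to be counted. Pdzd8, a tether between the reticulum and mitochondria, stood at -0.41 (unadjusted edgeR p 0.0122, adjusted p 0.247), or -0.24 with the length trend removed. Of the 11 genes of this list, 3 were higher and 3 lower without overlap, close to the 24.0% and 24.8% of all genes, with a median log2 fold change of 0.049. The 10 calcium-regulated carriers and dehydrogenases had a median of 0.094, with values from -0.089 to 0.24. The highest was Ogdh, a subunit gene of the oxoglutarate dehydrogenase, with 129 and 131 CPM untreated and 147 and 160.4 CPM with CCCP (edgeR adjusted p 0.389). The 5 store-operated entry genes had a median of 0.091, with values from -0.13 to 0.36.

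**Figure D5:**
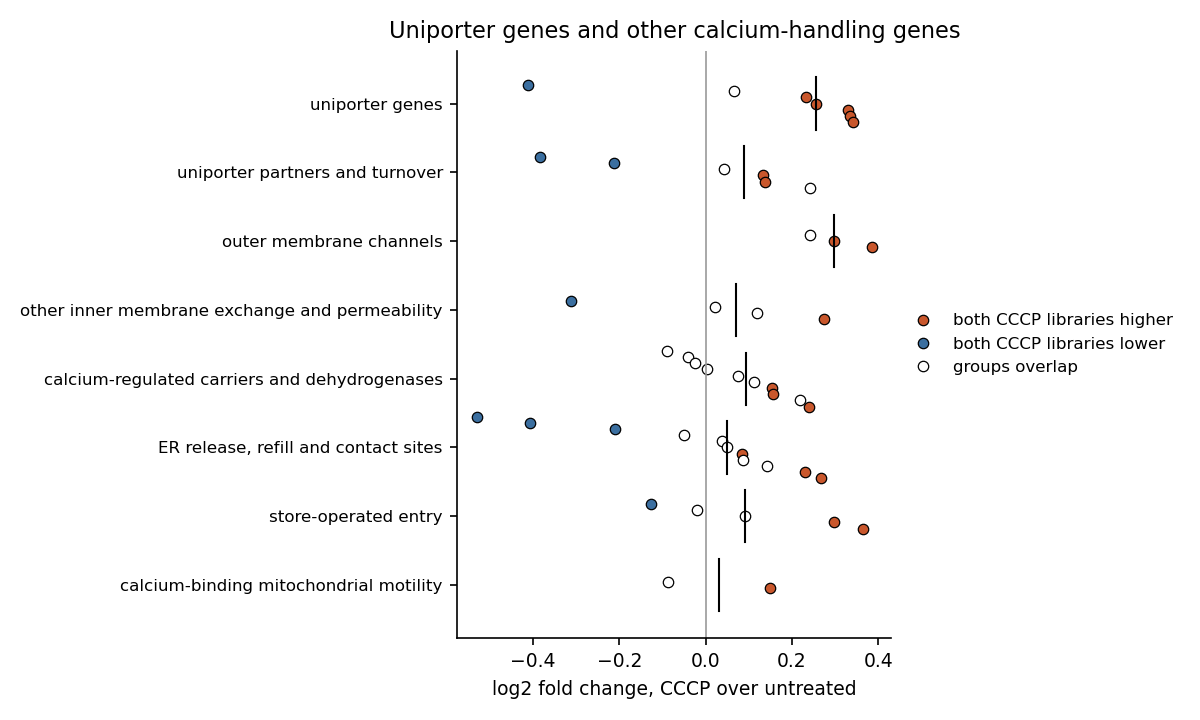
Log2 fold change (CCCP over untreated) of the 7 uniporter genes and of the other 41 calcium-handling genes by list; filled points have groups that do not overlap, white points groups that do, and vertical bars are medians. The values lie between -0.53 (Itpr1) and 0.38 (Vdac3), and the outer membrane channels are the list with the highest median, 0.30.

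Likeness of pattern was measured as the distance between the 4 deviations of log2 CPM from the mean of each gene, over 4 libraries. Among the 41 genes, the nearest to Micu3 was Letm2, a paralog of Letm1, at a distance of 0.126, and 0.544% of all other genes tested were as near. Letm2 had 7.35 and 6.02 CPM untreated and 5.65 and 5.13 CPM with CCCP, a log2 fold change of -0.31 (edgeR adjusted p 0.564). It was -0.15 without untreated replicate 1 and -0.16 with the length trend removed. The nearest to Smdt1 was Vdac1, at 0.0915, with 1.18% of genes as near, and the nearest to Mcu was Rhot2, a mitochondrial motility gene, at 0.127, with 1.86%. With so few libraries many genes lie as near, from 0.544% to 4.44% over the 7 members.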

How the data were processed

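The authors deposited raw read counts per gene, 1 table per library, made with featureCounts 2.0.3 over the exons of the mm10 RefSeq annotation, per the file headers. No strand option and no option to count read pairs was set there, and reads of several genes or places were not set to be counted. Without strand, reads of a gene and of an antisense partner cannot be told apart, although the library kit is directional. HISAT2, SAMtools, FastQC and Subread are named in the submitters' processing notes. Groups and replicate numbers came from the sample titles.

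All genes were fitted with edgeR 4.0.16 in R 4.3.3 (quasi-likelihood, two-sided, TMM scaling, filterByExpr with a minimum count of 10 and total of 15, group as the sole term), with Benjamini-Hochberg adjustment at 0.05. Standard errors are the log2 fold change divided by the square root of F, and intervals use 6.11 degrees of freedom. TPM used the deposited exon lengths. A count of 3 equals 0.0599 to 0.0827 CPM. GC content came from GENCODE M21 transcripts placed on the counted exons, and was known for 81.7% of genes tested. Promoters came from RefSeq. Some of the fits were also run on simulated counts, as a check of the code. The simulated libraries were independent and varied less than these. That check thus does not show how many real changes the fits would find here. Alternatives were DESeq2 1.42.0, other scaling, no filter, removed length or GC trends, a replicate block and each library left out.

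The members and lists were chosen with earlier results of these data known. All 7 members are named, and of the 41 other genes the pore partners, the outer membrane channels, the 3 smallest p-values in each direction and the nearest in pattern. A further gene of these lists is not reported here.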

Additional observations from a re-analysis of the deposited data

How the results depend on the processing

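With 2 libraries per group, precision is limited by the spread between libraries, whose biological coefficient of variation over genes was 21.9% in edgeR. The count of genes passing in edgeR was 0 in the fit reported, with either other scaling and with the length or GC trend removed. It was 1107 without a filter and 594 in DESeq2, and 10 to 46 when 1 library was left out, where the lone library of a group is assumed to vary like the other group. With the replicate block it was 2118, and 1242 with the length trend removed as well or 1040 with the GC trend removed as well. Same-numbered libraries deviated together (correlation 0.36 over genes) and were close in depth. The meaning of a number is not given in the labels, however, and with 2 pairs the replicate block is not taken as a pairing.

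Of the 7 uniporter genes 0 passed in any of these fits, except that 1 passed with the replicate block and the length trend removed together (Letm1, log2 fold change 0.43, adjusted p 0.0323, against 0.149 to 0.881 without the block). Of the 41 other genes, 1 passed without a filter (Itpr1), 0 in DESeq2, 3 with the replicate block (Itpr1, Pdzd8 and Yme1l1, adjusted p 0.0150, 0.0338 and 0.0381), 2 with this block after removal of the length trend (Ogdh and Vapb, 0.0250 and 0.0346), and 2 after removal of the GC trend (Itpr1 and Vdac3, 0.0150 and 0.0266). On the TPM scale 3 of the 7 had groups that do not overlap, against 6 on the CPM scale (of all genes, 9.06% were higher and 38.2% lower on the TPM scale, and 48.8% stood apart in either direction on the CPM scale). The GC corrections and the TPM scale were chosen after seeing the data.

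Signs turned for Micu3 (0.075 with the GC of the longest transcript), Mcur1 (-0.0043 without CCCP replicate 2, within a range of -0.0043 to 0.15 when 1 library was left out), Spg7 (-0.027 with the GC trend removed, with or without the block) and Yme1l1 (0.10 with the GC trend removed, 0.0996 with the block as well, 0.012 with the GC of the longest transcript). The cause was not tested.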
